A study of Danio rerio with 14 samples.

Results

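The tip of the regrowing zebrafish fin ray at 3 days post amputation (dpa) was compared with the ray tip at 0 dpa, the day of amputation, across genes and pathways. Genes were included where they reached 1 TPM, a transcript's share of its library scaled to a fixed total, in at least 2 of the 6 libraries of these 2 times, which kept 11005 of 14836 genes. Tissue was labelled wild type, was taken from the distal 250 µm or so of each ray, and was pooled from 10 fish for each library. There were 3 libraries at 3 dpa, a label that the design text gives as 3.5 days, and 3 at 0 dpa. A further 8 libraries of later regrowth came from the same study, 3 at 7 dpa, 3 at 10 dpa and 2 at 14 dpa, because the 14 dpa tissue yielded 2 libraries of sufficient quality. Neither allele nor agent was named for any group, and age, sex, strain background and hour of collection were not given in the sources used here, nor was it stated whether the 0 dpa tip was taken before or just after the cut.

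When a fin ray is cut, epidermis closes the wound, and the connective tissue and bone cells of the stump lose much of their mature character, divide and gather beneath the wound epidermis as the blastema. The blastema then lays down new fin ray matrix, including actinotrichia, the collagen-rich rods at the fin edge, while Shh, Fgf and Wnt signals pass between it and the overlying epidermis. By its labels the 3 dpa strip is young regenerate, and the 0 dpa strip is the tip before regrowth. In bulk tissue of this kind, fewer cells of a type and less RNA per cell cannot be told apart.

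Library 1 of 0 dpa stood apart from the other 0 dpa libraries. In a principal component analysis of the 6 libraries, the first component held 81.8% of the variance and separated the times. The second held 10.5% and placed 0 dpa library 1 at 43.2, with the other 5 libraries between -23.8 and 9.31. For fosb, an immediate early gene induced soon after handling or injury, the libraries had 102, 41.1 and 23.1 TPM at 3 dpa, against 1348, 136 and 82.3 TPM at 0 dpa, so this library was the highest of the 6. Pearson correlations of log2(TPM + 1) were 0.977 to 0.988 within 3 dpa, 0.964 to 0.991 within 0 dpa, and 0.845 to 0.863 between the times. Without that library 4195 genes rose and 1971 fell, which is 38.1% and 17.9% of genes tested. Where leaving it out ends or makes a call named below, the value without it is given too. Means are given ± SD over the 3 libraries of a time, and log2 changes, on the log2(TPM + 1) scale and as 3 dpa minus 0 dpa, ± standard error.

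Differences were tested with limma on log2(TPM + 1) over all 14 libraries, with Benjamini-Hochberg adjustment over the 11005 genes, and a gene is said to have risen or fallen where the adjusted p was under 0.05. By that rule 3920 genes (35.6%) rose and 2185 (19.9%) fell at 3 dpa relative to 0 dpa, 6105 (55.5%) in all. The 3 libraries of each time did not overlap for 6864 genes (62.4%). A change of more than 1 on the log2 scale was called for 2039 rises and 1324 falls, and a change of more than 4 for 64 rises and 16 falls. TPM is a share of each library's own total, and the gene in the middle of the distribution was higher at 3 dpa by 0.25 on the log2 scale. After median-of-ratios scaling, which brought that shift to 0.02, 2919 genes (26.5%) rose and 2956 (26.9%) fell, so that rises made up 49.7% of calls with scaling and 64.2% without it. No gene passed the test in opposite directions with and without scaling. The shares of all genes, 35.6% and 19.9%, are the background against which each gene group is read below.

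**Figure D1:**
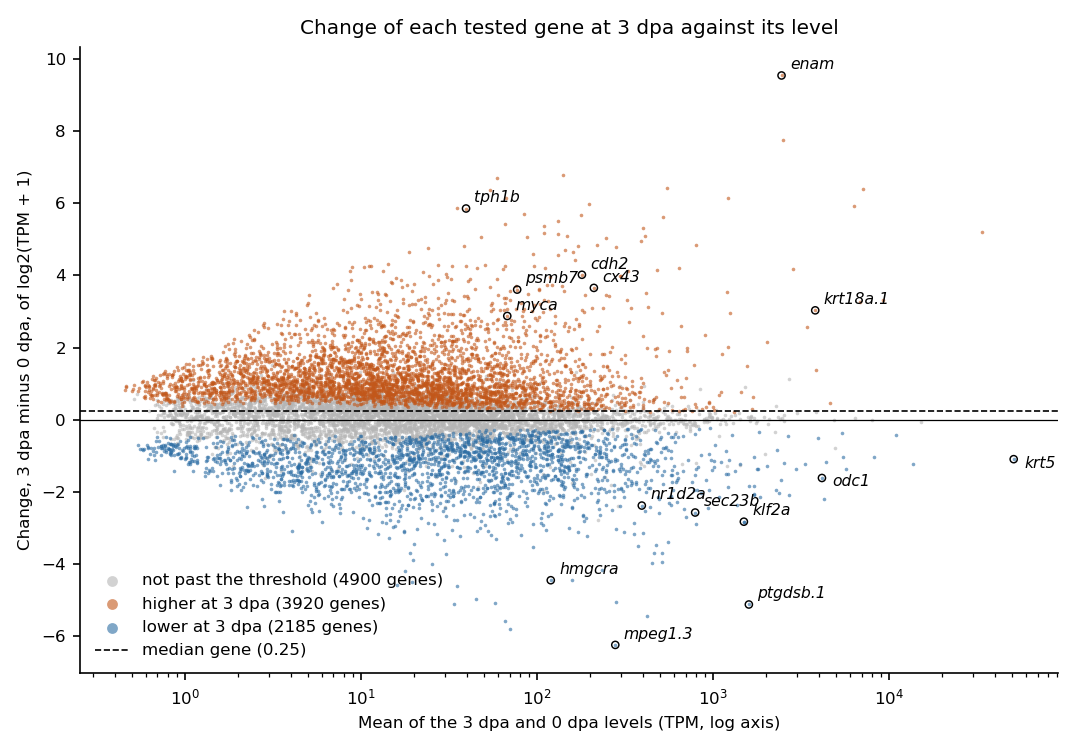
Change of each of the 11005 genes between 3 and 0 dpa (vertical axis, log2 of TPM + 1 at 3 dpa minus 0 dpa) against its mean level in the 6 libraries (horizontal log axis, TPM); colours mark genes that rose, fell or did not pass the test. Named points show that large changes ran both ways and occurred among abundant genes, such as krt18a.1, as well as scarce ones.

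**Figure D2:**
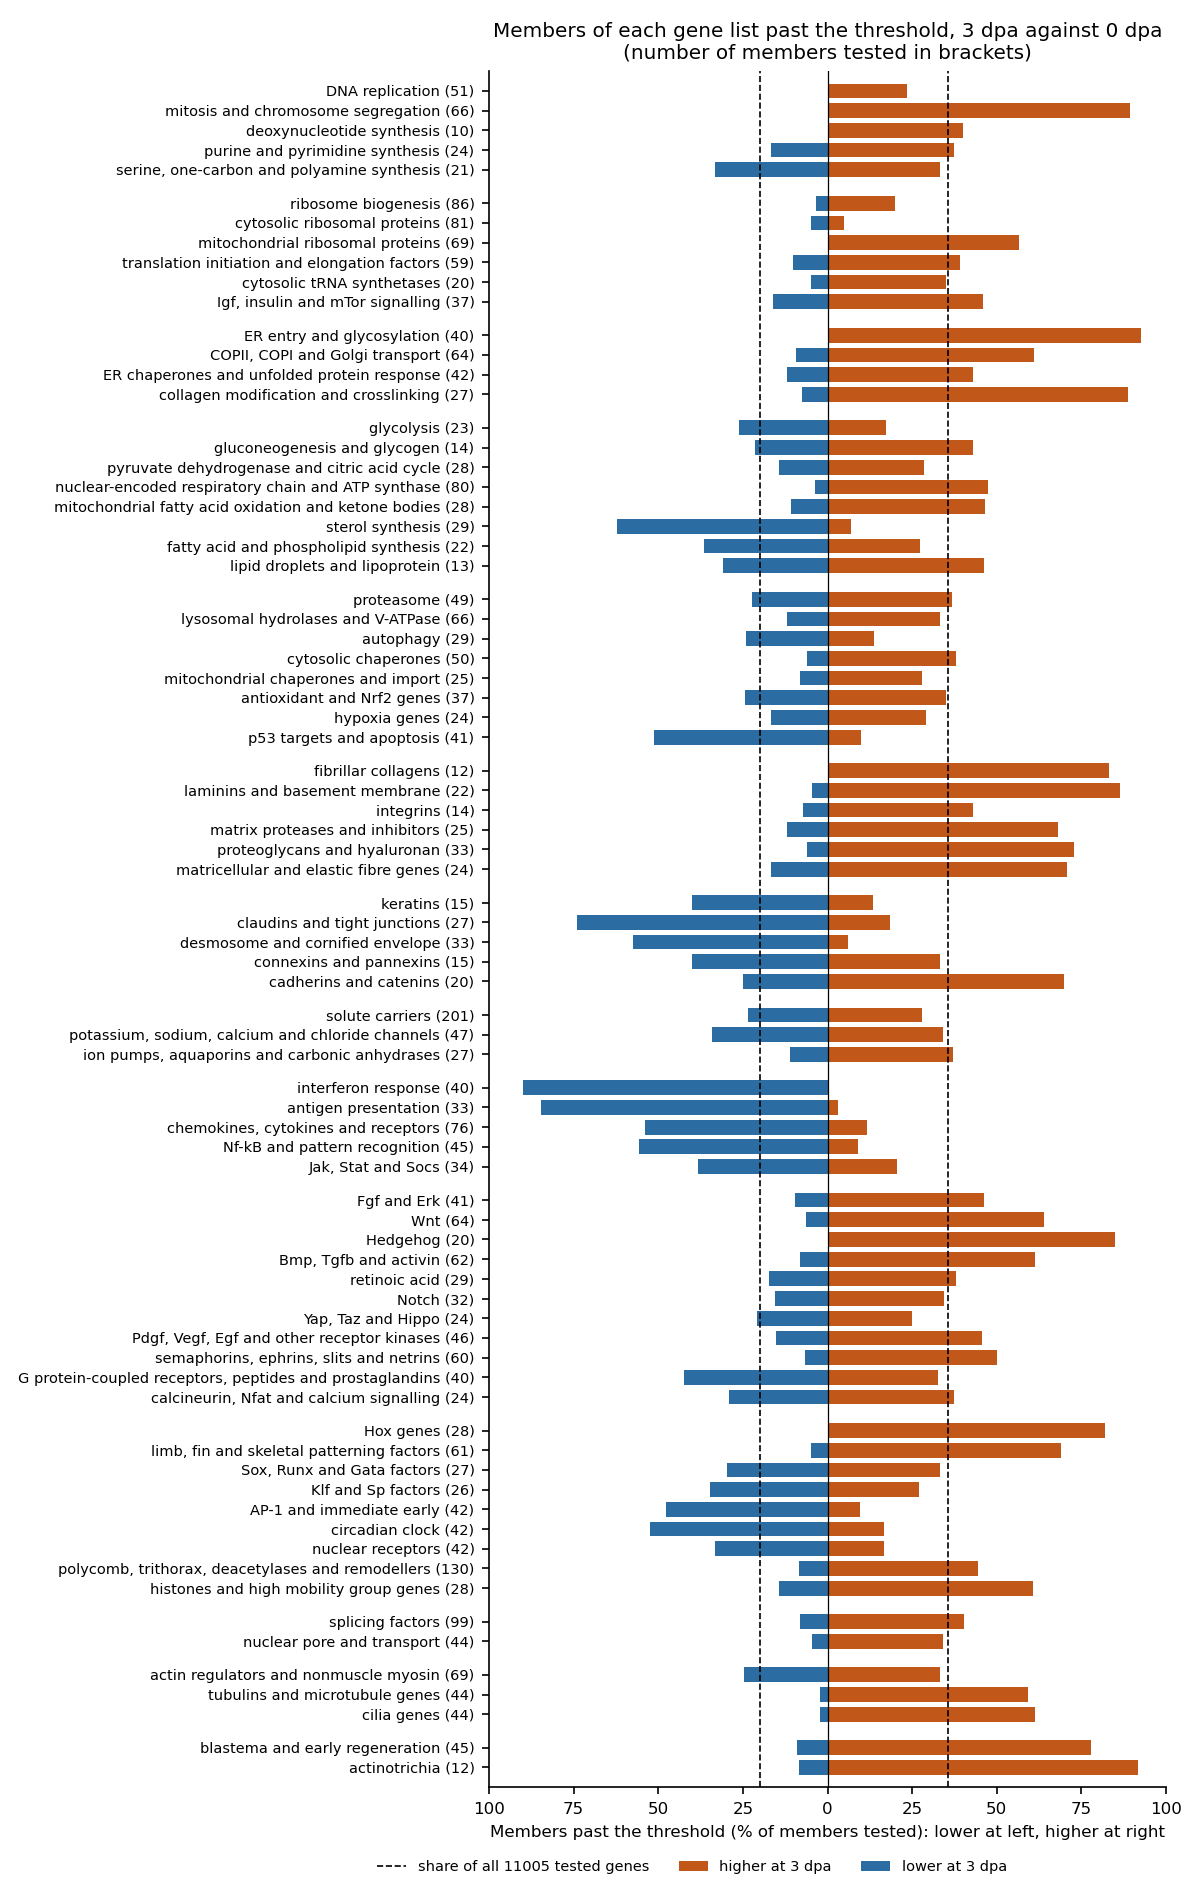
Share of the tested members of each gene group that rose (right) or fell (left) at 3 dpa relative to 0 dpa, in percent; dashed lines mark the shares over all 11005 genes, 35.6% and 19.9%. Groups of mitosis, ER entry, Hedgehog signalling and Hox genes lie far to the right, and interferon response, antigen presentation and tight junction groups far to the left. DNA replication genes, at 23.5% risen, fall short of the dashed line, and ER chaperones, at 42.9%, lie near it.

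A large part of the transcript pool was taken by keratins at 0 dpa and by collagens at 3 dpa. Fibrillar collagens, the rope-forming collagens of bone and connective tissue, rose for 10 of 12 members tested and fell for none. Here and below, the sums of a group cover all its members among the 14836 genes, tested or not. Fibrillar collagens together held 112282, 110533 and 86838 TPM at 3 dpa, against 7529, 6956 and 5010.1 TPM at 0 dpa. Keratins, the filament proteins of epithelia, rose for 2 of 15 members (4 without 0 dpa library 3) and fell for 6, and their sums were 53424, 62933 and 68450.5 TPM at 3 dpa, against 93382, 112515 and 136202 TPM at 0 dpa. Neither group of sums overlapped between the times. krt5, a keratin of basal cells, had 29121, 32556 and 35247 TPM at 3 dpa, against 55498, 67835 and 86469 TPM at 0 dpa. Every 3 dpa library was below every 0 dpa library for it (log2 change -1.09 ± 0.17, limma adjusted p = 0.000192). krt15 moved the same way (1603 TPM at 3 dpa against 6982 at 0 dpa, log2 change -2.19), whereas krt18a.1, a keratin of simple epithelia, rose (6772 ± 505 TPM at 3 dpa and 855 ± 281 TPM at 0 dpa, log2 change 3.03 ± 0.27, limma adjusted p = 1.36e-06). Keratin genes thus moved in both directions.

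**Figure D3:**
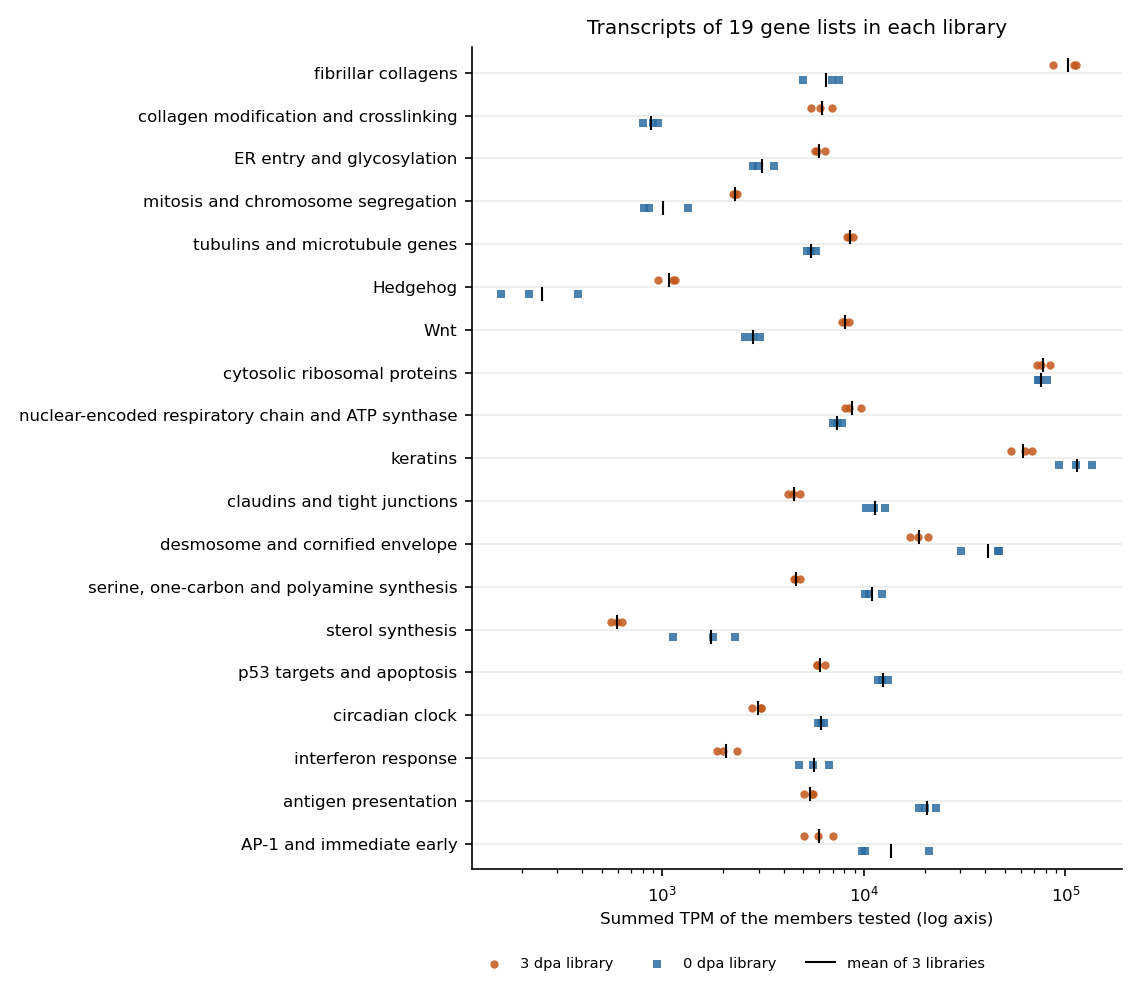
Summed TPM of 19 gene groups in each library (horizontal log axis, TPM), with the 3 libraries of 3 dpa above the 3 of 0 dpa for each group. Sums cover all members of a group, tested or not, although the axis label names members tested. Fibrillar collagens and collagen-modifying genes sit far to the right at 3 dpa, and antigen presentation, interferon and sterol synthesis genes sit to the left.

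Genes of cell division rose as a group. Of 66 genes of mitosis and chromosome segregation, 59 (89.4%) rose and none fell, with a median log2 change of 1.1 against 0.25 over all genes. ccnb1, the B-type cyclin that drives entry into mitosis, had 54.1, 65.5 and 81.7 TPM at 3 dpa, against 20, 14.9 and 19.5 TPM at 0 dpa. Its groups did not overlap (log2 change 1.82 ± 0.19, limma adjusted p = 6.21e-06). The spindle and division genes cdc20 (42.6 TPM at 3 dpa against 12.3 at 0 dpa), tpx2 (70.3 TPM at 3 dpa against 21.9 at 0 dpa) and plk1 (82.2 TPM at 3 dpa against 26.4 at 0 dpa) followed, and so did mki67, a nuclear protein of cycling cells (174 ± 24.9 TPM at 3 dpa and 82.4 ± 28.8 TPM at 0 dpa). A smaller share of DNA replication genes passed: 12 of 51 rose (23.5%) and none fell, although their median log2 change was 0.68. ccne1, the cyclin of S phase entry, was among those that rose (9.89 TPM at 3 dpa against 1.44 at 0 dpa, log2 change 2.16 ± 0.25). mcm7, a subunit of the replicative helicase, had 133, 104 and 105 TPM at 3 dpa, against 97.6, 62.8 and 60.4 TPM at 0 dpa, and did not pass over all libraries (log2 change 0.65 ± 0.35, limma adjusted p = 0.134). Fitted to the 6 libraries alone, its adjusted p by limma was 0.0274, and 0.00493 with the replicate number as a block. The replication count rested on single libraries: it was 23 of 51 without 0 dpa library 1, and 6 or 7 without 0 dpa library 2 or 3 or 3 dpa library 1. pcna, the replication clamp, rose (245, 207 and 218 TPM at 3 dpa, against 179.9, 109.8 and 111 TPM at 0 dpa, log2 change 0.78 ± 0.30, limma adjusted p = 0.0405), but its adjusted p was 0.119 after scaling and 0.132, 0.123, 0.108, 0.066 and 0.0804 without 0 dpa library 2 or 3 or 3 dpa library 1, 2 or 3. With the replicate number as a block it was 0.0549. Ribonucleotide reductase subunit rrm2 (116 TPM at 3 dpa against 59.1 at 0 dpa) and dut (56.9 TPM at 3 dpa against 22.4 at 0 dpa), both of the supply of DNA precursors, rose as well. In that list 4 of 10 rose (40%, near the 35.6% of all genes) and none fell.

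Much of the machinery that loads, folds and ships secreted protein rose, with a few coat and stress genes moving the other way. In the group that carries proteins into the endoplasmic reticulum (ER) and attaches sugars, 37 of 40 members (92.5%) rose and none fell; their sums were 6376, 5714 and 5863 TPM at 3 dpa, against 3559, 2813 and 2990.3 TPM at 0 dpa. sec61a1, the translocation channel, averaged 574 ± 22.1 TPM at 3 dpa and 372 ± 20.7 TPM at 0 dpa. tram2, a translocation partner linked to collagen synthesis, averaged 70.3 ± 11.2 TPM at 3 dpa and 13 ± 5.26 TPM at 0 dpa. After scaling 29 of the 40 still rose. ER chaperones and genes of the unfolded protein response were mixed, with 18 of 42 risen (42.9%) and 5 fallen (11.9%), or 14 and 11 after scaling. Over all genes the shares were 35.6% and 19.9%. txndc5, a disulphide isomerase, had 457, 422 and 392 TPM at 3 dpa, against 62.6, 45.9 and 39.6 TPM at 0 dpa, and its groups were far apart (log2 change 3.10 ± 0.17, limma adjusted p = 3.55e-08). calr, the calcium-binding chaperone calreticulin, rose too (210.2 ± 48.9 TPM at 3 dpa and 41.5 ± 19.7 TPM at 0 dpa), while hspa5, the main ER Hsp70, did not pass over all libraries (1064 TPM at 3 dpa against 618 at 0 dpa, log2 change 0.84 ± 0.38, limma adjusted p = 0.0798). hspa5 did pass without 0 dpa library 1 (adjusted p = 0.0164 by limma) and, with the replicate number as a block, in the 6 libraries alone (adjusted p = 0.00217 by limma). A pair of stress response genes picked out after their values were seen, ddit3 (36.1 TPM at 3 dpa against 67.4 at 0 dpa, log2 change -0.90) and dnajb9b (12.3 TPM at 3 dpa against 31 at 0 dpa, log2 change -1.29), fell. The list thus held members of both signs.

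Among vesicle coat and Golgi genes, 39 of 64 rose and 6 fell, or 26 and 10 after scaling. kdelr3, a receptor that returns ER residents from the Golgi, had 137, 113 and 109 TPM at 3 dpa, against 20.5, 9.25 and 8.31 TPM at 0 dpa. It changed more than any other member of the group (log2 change 3.24 ± 0.39, limma adjusted p = 2.05e-05). The paralogous coat subunits of COPII vesicles, which leave the ER, moved in opposite directions. sec23b had 324, 227 and 154 TPM at 3 dpa, against 1524, 1368 and 1162 TPM at 0 dpa, with every 3 dpa library below every 0 dpa library (log2 change -2.58 ± 0.45, limma adjusted p = 0.000372). Its paralogue sec23a, singled out after its values were seen, rose (156 ± 31.8 TPM at 3 dpa and 60.9 ± 7.8 TPM at 0 dpa, log2 change 1.33 ± 0.16). The same held for the cargo-binding subunits, also singled out afterwards: sec24d rose (252 TPM at 3 dpa against 109 at 0 dpa, log2 change 1.19) and sec24c fell (111 TPM at 3 dpa against 186 at 0 dpa, log2 change -0.73). Enzymes that modify and crosslink collagen rose for 24 of 27 members, with a median log2 change of 3.37 and sums of 6172 ± 754 TPM at 3 dpa and 882 ± 76.4 TPM at 0 dpa (SD, n = 3 each). serpinh1b, the collagen chaperone Hsp47, averaged 129 ± 39.6 TPM at 3 dpa and 2.21 ± 1.74 TPM at 0 dpa. fkbp9, a prolyl isomerase of the ER, had 1019.7 TPM at 3 dpa against 20.2 at 0 dpa. The lysyl hydroxylase plod1a had 332 TPM at 3 dpa against 11 at 0 dpa. The 2 members that fell, named after their values were seen, were pcolceb (14.2 TPM at 3 dpa against 175 at 0 dpa), an enhancer of procollagen cleavage, and loxl1 (5.54 TPM at 3 dpa against 9.61 at 0 dpa), a lysyl oxidase.

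Few cytosolic ribosomal protein genes passed the test in either direction, and many of the mitochondrial ones rose. Of 81 cytosolic ribosomal proteins 4 rose and 4 fell, fewer in each direction than among all genes, and their median log2 change was 0.00. After scaling, none of them rose and 38 fell, so the direction for this family rests on the scale chosen. The count risen was 2 without 3 dpa library 3 or 0 dpa library 2 or 3, 6 without 0 dpa library 1, and 2 with the replicate number as a block. The count fallen was 1 or 2 without 0 dpa library 1 or 3 dpa library 1 or 2, and 1 with that block. Mitochondrial ribosomal proteins rose for 39 of 69 (56.5%) and fell for none, at a median of 0.55. After scaling 22 of the 69 rose, where 26.5% of all genes did. Without 3 dpa library 3 and without 0 dpa library 2, 24 and 21 rose, against 3409 and 3135 of all 11005 genes. mrpl40 (11.4 ± 1.43 TPM at 3 dpa and 3.59 ± 0.687 TPM at 0 dpa) and mrps23 (8.81 ± 1.52 TPM at 3 dpa and 3.68 ± 0.265 TPM at 0 dpa) led them. Nuclear-encoded respiratory chain and ATP synthase genes rose for 38 of 80 (47.5%, against 35.6% of all genes). After scaling 9 of the 80 rose and 5 fell, against 26.5% and 26.9% of all genes. atp5mc1, of the rotor ring of ATP synthase, was among the 38 (173 ± 21.5 TPM at 3 dpa and 88 ± 7.65 TPM at 0 dpa, log2 change 0.96 ± 0.11, limma adjusted p = 1.58e-05). Assembly factors of the ribosome rose for 17 of 86 and fell for 3, a share of 19.8% that was below the 35.6% of all genes; the count risen was 7 after scaling, 11 without 3 dpa library 3 and 9 without 0 dpa library 2. Of 59 translation factors 23 rose, a share of 39% that was close to the 35.6% of all genes. That count was 15 without 3 dpa library 3, and 8 after scaling, where 26.5% of all genes rose. Among those that rose was eif5a2 (852 ± 36.9 TPM at 3 dpa and 393 ± 23.8 TPM at 0 dpa), a paralogue of the hypusine-carrying factor eIF5A.

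Several genes of polyamine metabolism fell, and an enzyme of serine synthesis rose. In the list of serine, folate-cycle and polyamine genes 7 of 21 rose and 7 fell, and their sums were 4794, 4505 and 4539 TPM at 3 dpa, against 10574, 12234 and 10171 TPM at 0 dpa. odc1, ornithine decarboxylase, makes the first polyamine and is usually linked to growth. It had 2332, 1914 and 1889 TPM at 3 dpa, against 6399.7, 7039 and 5409.8 TPM at 0 dpa. All 3 dpa libraries lay below all 0 dpa libraries (log2 change -1.62 ± 0.15, limma adjusted p = 2.68e-06). smox, which oxidises spermine, averaged 307 ± 46.8 TPM at 3 dpa and 955 ± 159.8 TPM at 0 dpa. sat1a.1, which acetylates polyamines for export, averaged 19.7 ± 5.56 TPM at 3 dpa and 103 ± 14.5 TPM at 0 dpa. mat2ab, a methionine adenosyltransferase that supplies S-adenosylmethionine, had 49.3, 83.7 and 77.1 TPM at 3 dpa, against 519, 1193 and 1148 TPM at 0 dpa (log2 change -3.69 ± 0.38, limma adjusted p = 4.94e-06). Against these, psat1, an aminotransferase of serine synthesis, rose (114 ± 6.57 TPM at 3 dpa and 26.7 ± 2.02 TPM at 0 dpa, log2 change 2.06 ± 0.14).

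Sterol synthesis fell as a pathway. Of its 29 genes 18 (62.1%) fell and 2 rose (1 with the replicate number as a block, after scaling, or without 3 dpa library 1 or 2 or 0 dpa library 2 or 3), with a median log2 change of -1.47; after scaling 21 fell. hmgcra encodes the rate-limiting HMG-CoA reductase and had 4.19, 17.1 and 9.92 TPM at 3 dpa, against 142, 278 and 269 TPM at 0 dpa. That was among the 15 largest falls that the naming rule selected (log2 change -4.45 ± 0.54, limma adjusted p = 2.26e-05). sqlea, the squalene epoxidase, averaged 1.1 ± 0.274 TPM at 3 dpa and 38.7 ± 30.4 TPM at 0 dpa. cyp51, a sterol demethylase, averaged 10.19 ± 0.983 TPM at 3 dpa and 78.3 ± 44 TPM at 0 dpa. srebf2, the transcription factor that governs the pathway, was lower as well (119.7 ± 24.5 TPM at 3 dpa and 432 ± 124 TPM at 0 dpa, log2 change -1.82 ± 0.29, limma adjusted p = 0.000175). Fatty acid and phospholipid synthesis was mixed, with 6 risen and 8 fallen of 22: the elongases elovl6l (67.5 TPM at 3 dpa against 382 at 0 dpa) and elovl1a (117 TPM at 3 dpa against 365 at 0 dpa) fell, and elovl1b (450.5 TPM at 3 dpa against 274 at 0 dpa) rose, a call it lost after scaling (limma adjusted p = 0.123). Oxidation of fatty acids in mitochondria had 13 of 28 genes risen (46.4%) and 3 fallen (10.7%), against 35.6% and 19.9% of all genes. Glycolytic genes did not move together: 4 of 23 rose and 6 fell (3 without 3 dpa library 2, and 3 without 0 dpa library 1 or 2), and gapdhs, an abundant glyceraldehyde-3-phosphate dehydrogenase, did not pass (722 TPM at 3 dpa against 741 at 0 dpa, adjusted p = 0.73 by limma). Genes of pyruvate dehydrogenase and the citric acid cycle rose for 8 of 28 (28.6%) and fell for 4 (14.3%), or 2 and 6 after scaling. In that group idh2, a mitochondrial isocitrate dehydrogenase, rose (251 ± 22.1 TPM at 3 dpa and 80.4 ± 10.8 TPM at 0 dpa), and pdk2b, a kinase that switches pyruvate dehydrogenase off, fell (12.22 ± 0.668 TPM at 3 dpa and 55.3 ± 17 TPM at 0 dpa).

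Peroxide-handling and detoxifying enzymes moved in both directions. The ER peroxidase gpx7 had 51.2, 43.1 and 48.7 TPM at 3 dpa, against 1.08, 0.607 and 0.738 TPM at 0 dpa (log2 change 4.75 ± 0.27, limma adjusted p = 3.5e-08), and its relative gpx8 averaged 32.5 ± 2.15 TPM at 3 dpa and 1.37 ± 0.862 TPM at 0 dpa. hmox1a, the haem oxygenase, was higher at 3 dpa in every library (76.2, 199 and 480.0 TPM at 3 dpa, against 31.6, 41.9 and 22.4 TPM at 0 dpa), as was catalase, cat (53.5 TPM at 3 dpa against 13.7 at 0 dpa). nqo1, the quinone reductase that is a classic Nrf2 target, was lower (15.5 ± 0.609 TPM at 3 dpa and 96.2 ± 21.7 TPM at 0 dpa, log2 change -2.54 ± 0.23, limma adjusted p = 2.09e-06), and so was prdx5, a peroxiredoxin (275 TPM at 3 dpa against 535 at 0 dpa). In all 13 of 37 genes of that list rose (35.1%) and 9 fell (24.3%), close to the 35.6% and 19.9% of all genes.

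Within the proteasome, the catalytic subunit gene psmb7 rose and genes of the immunoproteasome fell. psmb7 is the constitutive catalytic subunit of trypsin-like activity and had 137, 129 and 165 TPM at 3 dpa, against 9.38, 14 and 9.52 TPM at 0 dpa. It changed more than any other member of the list (log2 change 3.61 ± 0.18, limma adjusted p = 1.08e-08). psmb8a, an immunoproteasome subunit, had 104, 95.7 and 122 TPM at 3 dpa, against 374, 305 and 325 TPM at 0 dpa, with no overlap between the times (log2 change -1.64 ± 0.12, limma adjusted p = 3.85e-07). psmb9a, a second such subunit, averaged 56.2 ± 9.08 TPM at 3 dpa and 143 ± 39.5 TPM at 0 dpa. psmb13a, a further catalytic subunit, averaged 61.3 ± 8.51 TPM at 3 dpa and 216 ± 33.1 TPM at 0 dpa. psme2, part of the interferon-inducible activator, averaged 149 ± 25.2 TPM at 3 dpa and 393 ± 49.2 TPM at 0 dpa. Over the list of 49, 18 rose (36.7%) and 11 fell (22.4%), shares close to those of all genes. After scaling 2 rose and 14 fell, against 26.5% and 26.9% of all genes. psmb7 and the 4 fallers named here passed in the same direction either way. Genes of autophagy fell for 7 of 29 members (24.1%) and rose for 4 (13.8%), against 19.9% and 35.6% of all genes. After scaling 15 fell, where 26.9% of all genes did. sqstm1, the p62 cargo receptor, had 117 ± 31.3 TPM at 3 dpa and 310.4 ± 35.2 TPM at 0 dpa (log2 change -1.43 ± 0.21, limma adjusted p = 0.00011). Lysosomal genes rose for 22 of 66 and fell for 8, both smaller shares than the 35.6% and 19.9% of all genes. After scaling 13 of the 66 rose and 23 fell, against 26.5% and 26.9% of all genes.

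Targets of p53 and genes of apoptosis were lower in the young regenerate: 21 of 41 fell (51.2%) and 4 rose, at a median log2 change of -0.81. ccng2, a cyclin G linked to cell cycle arrest, had 114, 51.1 and 40.1 TPM at 3 dpa, against 714, 576 and 393 TPM at 0 dpa. It changed most in this list (log2 change -3.12 ± 0.61, limma adjusted p = 0.000932). Falls covered genes that promote death, such as bik (10.9 ± 1.22 TPM at 3 dpa and 72.3 ± 10.22 TPM at 0 dpa), and genes that restrain it, such as xiap (122 ± 19.9 TPM at 3 dpa and 703 ± 100.1 TPM at 0 dpa) and mcl1a (254 ± 41.5 TPM at 3 dpa and 779 ± 339.9 TPM at 0 dpa).

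**Figure D4:**
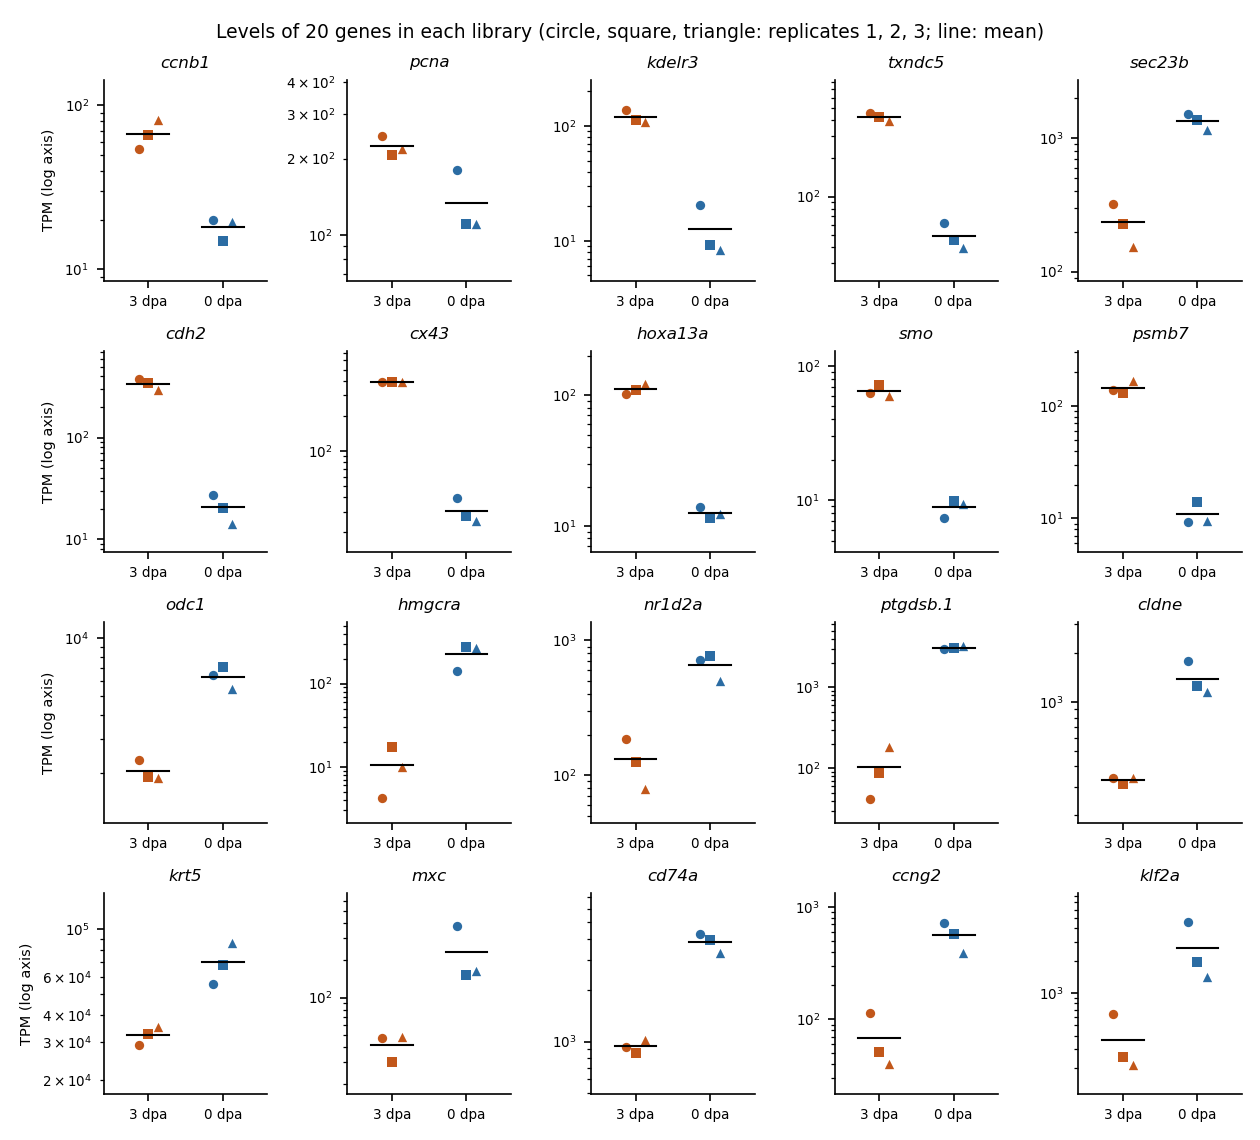
TPM of 20 named genes in each library of 3 dpa (left of each pair) and 0 dpa (right), on a log axis; each symbol is 1 library and lines mark means. Upper genes such as ccnb1, kdelr3, cdh2 and psmb7 are higher in all 3 dpa libraries, and lower genes such as hmgcra, ptgdsb.1 and klf2a are lower in all of them.

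Tight junction and desmosome genes of the epidermal barrier were mostly lower. Of 27 claudin and tight junction genes 20 fell (74.1%) and 5 rose, and their sums were 4464, 4207 and 4806 TPM at 3 dpa, against 12785, 11190.0 and 10248 TPM at 0 dpa. cldne, an epidermal claudin, had 338, 313 and 338 TPM at 3 dpa, against 1773, 1247 and 1147 TPM at 0 dpa, without overlap (log2 change -2.04 ± 0.21, limma adjusted p = 5.36e-06). oclnb, an occludin, averaged 164 ± 10.1 TPM at 3 dpa and 668 ± 109.9 TPM at 0 dpa, and cldnb averaged 987 ± 87.2 TPM at 3 dpa and 2588 ± 494 TPM at 0 dpa. cldn11b, in contrast, rose (23.2 ± 1.16 TPM at 3 dpa and 4.02 ± 1.44 TPM at 0 dpa, log2 change 2.31 ± 0.22). Desmosome and cornified envelope genes fell for 19 of 33 and rose for 2 (1 after scaling, without 3 dpa library 3 or without any 1 of the 0 dpa libraries); the desmosomal cadherin dsg2.1 had 3139.5 ± 648 TPM at 3 dpa and 8301 ± 2339 TPM at 0 dpa, and its plaque partner pkp3a 2649.9 ± 456 TPM at 3 dpa and 6114 ± 1856 TPM at 0 dpa. Basement membrane genes went the other way, with 19 of 22 risen. frem2b, of the Fras and Frem complex under the epidermis, averaged 1218 ± 334 TPM at 3 dpa and 64.9 ± 17.6 TPM at 0 dpa, and the laminin chain lamb1a averaged 763 ± 170.5 TPM at 3 dpa and 75.9 ± 50.3 TPM at 0 dpa. Superficial epidermis markers fell for 11 of 17 and rose for 2, and basal epidermis markers fell for 7 of 15 and rose for 4. The superficial list includes cldne, krt4 and krt18a.1, and the basal list includes krt5, krt15, itga6b, itgb4 and cdh1. Laminin and Fras complex genes were entered on the basal list as well. These marker counts are thus not separate from the results for claudins, keratins, integrins, cadherins and basement membrane genes. The part of epidermal cell number in these changes was not tested.

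N-cadherin, both beta-catenin genes and a gap junction gene rose. cdh2, N-cadherin, had 376, 348 and 296 TPM at 3 dpa, against 27.1, 20.5 and 14.2 TPM at 0 dpa, and its groups were well apart (log2 change 4.02 ± 0.21, limma adjusted p = 1.94e-08). Among 20 cadherins and catenins 14 rose and 5 fell; both beta-catenin genes were higher, ctnnb1 at 1765 ± 110.2 TPM at 3 dpa and 502 ± 21.9 TPM at 0 dpa and ctnnb2 at 1952 ± 172 TPM at 3 dpa and 480.2 ± 35.1 TPM at 0 dpa. cdh1, E-cadherin, looked up after the values were seen, was lower (778 ± 48.5 TPM at 3 dpa and 1291 ± 289.9 TPM at 0 dpa, log2 change -0.71 ± 0.16, limma adjusted p = 0.00233). cx43, a gap junction gene whose mutants have short fin ray segments, had 390.0, 392 and 391 TPM at 3 dpa, against 39.3, 27.7 and 25 TPM at 0 dpa (log2 change 3.66 ± 0.15, limma adjusted p = 3.27e-09). The other connexins that changed most fell: cx30.3 averaged 42.3 ± 11.9 TPM at 3 dpa and 175 ± 36.7 TPM at 0 dpa, and cx34.4 averaged 39.7 ± 10.5 TPM at 3 dpa and 153 ± 12.5 TPM at 0 dpa. Of 15 connexin and pannexin genes 5 rose and 6 fell (40%, against 19.9% of all genes), and 3 rose without 3 dpa library 3, without 0 dpa library 2 or after scaling. Integrins rose for 6 of 14 (42.9%, against 35.6% of all genes). itga5, a chain of the fibronectin receptor, had 362 TPM at 3 dpa against 78.1 at 0 dpa, while the abundant epidermal chains itga6b (1242 TPM at 3 dpa against 2692 at 0 dpa, adjusted p = 0.253 by limma) and itgb4 (778 TPM at 3 dpa against 2081 at 0 dpa, adjusted p = 0.0991 by limma) did not pass over all libraries. In the 6 libraries alone with the replicate number as a block both fell (adjusted p = 0.00569 for itga6b and 0.00671 for itgb4, by limma), and itgb4 also fell without 0 dpa library 1 (adjusted p = 0.0167 by limma). Matrix proteases and their inhibitors rose for 17 of 25, with mmp2, a gelatinase, at 1508 ± 113 TPM at 3 dpa and 302 ± 70 TPM at 0 dpa. Proteoglycan and hyaluronan genes rose for 24 of 33, including has2, a hyaluronan synthase, at 31.4, 33.4 and 19.9 TPM at 3 dpa, against 0.27, 0.54 and 0.469 TPM at 0 dpa.

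Interferon-responsive and antigen-presenting genes were lower almost throughout. Of 40 interferon response genes 36 fell (90%, against 19.9% of all genes) and none rose; their sums were 1998, 1859 and 2358 TPM at 3 dpa, against 6728, 4754 and 5569 TPM at 0 dpa. irf7, a regulator of the type I interferon response, averaged 28.5 ± 3.83 TPM at 3 dpa and 185 ± 81.5 TPM at 0 dpa (log2 change -2.58 ± 0.59, limma adjusted p = 0.00267). mxc, an antiviral Mx GTPase, had 47, 30.4 and 48.2 TPM at 3 dpa, against 381, 151 and 163 TPM at 0 dpa. Its libraries did not overlap between the times (log2 change -2.34 ± 0.54, limma adjusted p = 0.00298), although reads of the similar Mx genes may be shared out among them by estimation. Antigen presentation genes fell for 28 of 33. b2m, the light chain of class I molecules, averaged 1023 ± 115 TPM at 3 dpa and 4363 ± 460.1 TPM at 0 dpa. The class II invariant chain cd74a had 932, 856 and 1021 TPM at 3 dpa, against 4256, 3949 and 3323 TPM at 0 dpa (log2 change -2.03 ± 0.16, limma adjusted p = 5e-07). Because class II genes mark immune cells, marker counts stand beside them. Lymphocyte markers fell for 16 of 21 and rose for 1, and Langerhans and dendritic markers fell for 8 of 11 and rose for 2. Macrophage markers fell for 9 of 20 and rose for 1, and neutrophil markers fell for 6 of 15 and rose for 3. The macrophage list and the Langerhans and dendritic list include cd74a itself, so their counts are not separate from the class II result. Lymphocyte markers summed to 387, 325 and 340.4 TPM at 3 dpa, against 1534, 983 and 816 TPM at 0 dpa, and their part in the result was not tested.

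Chemokine, cytokine and receptor genes fell for 41 of 76 and rose for 9. ccl19b, a chemokine that draws cells bearing Ccr7, averaged 0.846 ± 0.605 TPM at 3 dpa and 34.6 ± 19.6 TPM at 0 dpa, and ccr7 itself was under 1 TPM in all 3 dpa libraries (0.318, 0.96 and 0.875 TPM at 3 dpa, against 6, 5.74 and 5.7 TPM at 0 dpa). Genes of Nf-kB signalling and pattern recognition fell for 25 of 45. nos2a, the inducible nitric oxide synthase, had 37.9, 30.3 and 63.4 TPM at 3 dpa, against 1724, 343 and 516 TPM at 0 dpa, and nfkbiab, an inhibitor that Nf-kB induces, averaged 170.2 ± 46.7 TPM at 3 dpa and 821 ± 356 TPM at 0 dpa. tlr18, a fish Toll-like receptor, rose (9.62 ± 3.73 TPM at 3 dpa and 0.831 ± 0.282 TPM at 0 dpa). Jak, Stat and Socs genes rose for 7 of 34 and fell for 13, with log2 changes that ran from -2.81 to 6.15. socs1a, a feedback inhibitor, averaged 19.5 ± 4.47 TPM at 3 dpa and 96.9 ± 25.5 TPM at 0 dpa, and cish, a relative, averaged 14.3 ± 2.19 TPM at 3 dpa and 58.5 ± 16 TPM at 0 dpa. A pair of prostaglandin D synthase genes was among the 15 largest falls selected. ptgdsb.1 had 42.3, 87.2 and 182 TPM at 3 dpa, against 2980.1, 3105 and 3209 TPM at 0 dpa (log2 change -5.13 ± 0.38, limma adjusted p = 3.34e-07), and its near neighbour in sequence ptgdsb.2 had 19.1 TPM at 3 dpa against 821 at 0 dpa, with the same caution on shared reads. cfd, complement factor D, fell to 26.3 TPM at 3 dpa, against 439.8 TPM at 0 dpa. Complement genes fell for 4 of 9 and rose for 2.

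Signalling genes of the fin regenerate rose in several pathways. Hedgehog genes rose for 17 of 20 members (85%) and fell for none. The ligand shha, made in basal epidermis, averaged 19.2 ± 8.49 TPM at 3 dpa and 0.854 ± 0.335 TPM at 0 dpa, and its groups did not overlap (log2 change 3.36 ± 0.38, limma adjusted p = 1.32e-05). The signal transducer smo had 62.5, 71.9 and 59.4 TPM at 3 dpa, against 7.43, 9.8 and 9.31 TPM at 0 dpa, again without overlap (log2 change 2.74 ± 0.20, limma adjusted p = 3.47e-07). Wnt genes rose for 41 of 64 and fell for 4, or for 2 without 3 dpa library 3 or 0 dpa library 2. lef1, the nuclear partner of beta-catenin, had 211 ± 23.1 TPM at 3 dpa and 10.6 ± 1.96 TPM at 0 dpa. The secreted modulator sfrp2 had 22.8 TPM at 3 dpa against 0.224 at 0 dpa, and dkk3b had 469.5 TPM at 3 dpa against 43.41 at 0 dpa. Bmp, Tgfb and activin genes rose for 38 of 62 and fell for 5, or 34 and 8 after scaling. inhbab, an activin subunit gene, had 40.8 ± 2.01 TPM at 3 dpa and 4.72 ± 0.573 TPM at 0 dpa. tgfb2 had 15.6 ± 5.21 TPM at 3 dpa and 1.03 ± 0.322 TPM at 0 dpa. The target id1 had 1125 ± 81 TPM at 3 dpa and 302 ± 68.7 TPM at 0 dpa. In the Fgf and Erk list 19 of 41 rose (46.3%, against 35.6% of all genes) and 4 fell, or 7 after scaling. The sums of that list overlapped between the times (2188 ± 73.1 TPM at 3 dpa and 2233 ± 720.5 TPM at 0 dpa). fgf20a, needed for blastema formation, had 21.7, 26.8 and 33.3 TPM at 3 dpa, against 2.7, 1.49 and 1.47 TPM at 0 dpa, and its target class member etv5b had 173 TPM at 3 dpa against 34.8 at 0 dpa.

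Retinoic acid genes rose for 11 of 29 (37.9%, close to the 35.6% of all genes) and fell for 5, or for 3 without 3 dpa library 1 or 0 dpa library 3. Synthesis and breakdown rose together: aldh1a2, the synthesising dehydrogenase, averaged 123 ± 15.3 TPM at 3 dpa and 5.93 ± 1.36 TPM at 0 dpa. cyp26a1, the degrading oxidase, averaged 104 ± 42.1 TPM at 3 dpa and 24 ± 10.18 TPM at 0 dpa. rbp4, the retinol carrier, fell (36.1 ± 18.7 TPM at 3 dpa and 269 ± 20.6 TPM at 0 dpa, log2 change -2.99 ± 0.40, limma adjusted p = 4.94e-05). Notch genes were divided, with 11 of 32 risen (34.4%) and 5 fallen (15.6%), near the 35.6% and 19.9% of all genes. The count fallen was 2 or 3 without 3 dpa library 1 or 3 or 0 dpa library 2 or 3, 3 with the replicate number as a block, and 8 after scaling. The sugar transferase lfng (192 TPM at 3 dpa against 23.3 at 0 dpa), which modifies Notch receptors, and the effector her6 (49.8 TPM at 3 dpa against 4.89 at 0 dpa) rose, whereas the ligand dlc had 12, 9.15 and 7.8 TPM at 3 dpa, against 149.7, 77.9 and 73.2 TPM at 0 dpa (log2 change -3.19 ± 0.35, limma adjusted p = 9.82e-06). Yap and Hippo genes rose for 6 of 24 (25%) and fell for 5 (20.8%), against the same 35.6% and 19.9%. yap1 itself had 308 TPM at 3 dpa against 322 at 0 dpa (adjusted p = 0.974 by limma). Igf, insulin and mTor genes rose for 17 of 37 (45.9%) and fell for 6 (16.2%), or 14 and 9 after scaling. igf2b, an insulin-like growth factor, averaged 119 ± 13.3 TPM at 3 dpa and 10.8 ± 2.66 TPM at 0 dpa. pappaa, a protease that frees such ligands from binding proteins, averaged 10.9 ± 8.43 TPM at 3 dpa and 0.56 ± 0.213 TPM at 0 dpa; ddit4, an inhibitor of mTor, was lower (16.9 ± 4.56 TPM at 3 dpa and 78.6 ± 20.5 TPM at 0 dpa). Guidance genes rose for 30 of 60, among them the secreted cue sema3d (101 ± 10 TPM at 3 dpa and 11.7 ± 4.07 TPM at 0 dpa) and the receptor gene robo3 (101 ± 44.7 TPM at 3 dpa and 9.5 ± 0.951 TPM at 0 dpa). Receptor kinase genes rose for 21 of 46 (45.7%) and fell for 7 (15.2%), against 35.6% and 19.9% of all genes. pdgfra, a receptor of mesenchyme, had 144 ± 16.4 TPM at 3 dpa and 26.9 ± 6.95 TPM at 0 dpa, and erbb3a, a receptor of Schwann cells, had 21.9 ± 8.15 TPM at 3 dpa and 99.7 ± 7.55 TPM at 0 dpa. Glial markers, a list that includes erbb3a itself, were divided (7 risen and 8 fallen of 19). The part of glial cells in the fall of erbb3a was not tested.

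Hox genes rose broadly. Of 28 tested 23 (82.1%) rose and none fell; the 5 that did not pass were all hoxc genes. hoxa13a, a factor of the distal appendage, had 102, 110.3 and 121 TPM at 3 dpa, against 14, 11.4 and 12.4 TPM at 0 dpa (log2 change 3.04 ± 0.14, limma adjusted p = 4.93e-09), and hoxa13b averaged 146 ± 11.2 TPM at 3 dpa and 68.6 ± 6.91 TPM at 0 dpa. Genes of lower paralogue number rose too, hoxa9a at 16 ± 4.36 TPM at 3 dpa and 1.91 ± 0.657 TPM at 0 dpa and hoxa10b at 16.5 ± 2.24 TPM at 3 dpa and 3.32 ± 0.381 TPM at 0 dpa. Other patterning factors of limb, fin and skeleton rose for 42 of 61. msx2b averaged 253 ± 53.1 TPM at 3 dpa and 9.67 ± 1.96 TPM at 0 dpa, and prrx1b, of limb mesenchyme, averaged 97.4 ± 10.28 TPM at 3 dpa and 4 ± 0.625 TPM at 0 dpa. Sox4 and Sox11 class genes were prominent among the Sox, Runx and Gata factors, with sox11a at 50.8, 57.8 and 67.1 TPM at 3 dpa, against 3.92, 2.23 and 1.88 TPM at 0 dpa and sox4a at 202 TPM at 3 dpa against 19.1 at 0 dpa, while sox3 fell (73.1 ± 12.8 TPM at 3 dpa and 250.2 ± 53 TPM at 0 dpa). That list as a whole had 9 risen (33.3%) and 8 fallen (29.6%) of 27, against 35.6% and 19.9% of all genes.

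Early response genes fell more often than they rose, by counts that changed with single libraries. AP-1 and immediate early genes fell for 20 of 42 and rose for 4; without 0 dpa library 1 the counts were 12 fallen and 5 risen, and without 3 dpa library 2 or 3 the fallen numbered 13 and 12. Their sums were 6987, 5060.3 and 5934 TPM at 3 dpa, against 21015, 10096 and 9793 TPM at 0 dpa. klf2a, a flow- and stress-responsive factor, had 638, 251 and 213 TPM at 3 dpa, against 4558, 1934 and 1404 TPM at 0 dpa, and remained lower without that library (adjusted p = 0.00194 with it and 0.00881 without it, by limma). cebpb, an inflammatory and stress factor, had 393, 297 and 449 TPM at 3 dpa, against 1999.7, 817 and 791 TPM at 0 dpa. It fell (log2 change -1.54 ± 0.56, limma adjusted p = 0.0324), but its adjusted p was 0.125 without 0 dpa library 1 and 0.0639, 0.098 and 0.0532 without 3 dpa library 1, 2 or 3, and 0.0537 with the replicate number as a block. myca, a Myc gene of growing cells, rose against the trend (122, 118 and 121 TPM at 3 dpa, against 16.5, 13.2 and 17 TPM at 0 dpa, log2 change 2.88 ± 0.18, limma adjusted p = 9.55e-08).

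Clock genes were mostly lower, repressors among them. Of 42 clock genes 22 fell (52.4%) and 7 rose. nr1d1, a Rev-erb repressor, had 70.7, 55.4 and 64 TPM at 3 dpa, against 494, 222 and 209 TPM at 0 dpa. nr1d2a, its relative, had 187, 126 and 79.5 TPM at 3 dpa, against 717, 762 and 497 TPM at 0 dpa. Both were lower in every 3 dpa library (log2 change -2.16 ± 0.38 and -2.38 ± 0.31, limma adjusted p = 0.000415 and 3.92e-05). The repressors bhlhe41 (24.6 ± 4.78 TPM at 3 dpa and 193 ± 29.2 TPM at 0 dpa) and nfil3-6 (79 ± 4.4 TPM at 3 dpa and 414 ± 13.2 TPM at 0 dpa) were lower too. The activators arntl1a (16.3 ± 2.26 TPM at 3 dpa and 3.71 ± 0.774 TPM at 0 dpa) and clockb (25.3 ± 5.41 TPM at 3 dpa and 10.5 ± 2.89 TPM at 0 dpa), picked out after their values were seen, were higher. Collection hour was not given in the sources used here, and a difference in hour cannot be told apart from the difference in time after amputation.

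Most microtubule and cilia genes rose. Tubulin and microtubule genes rose for 26 of 44 (59.1%) and fell for 1, or 2 without 0 dpa library 1. tubb5, a beta tubulin, had 385, 361 and 305 TPM at 3 dpa, against 5, 7.97 and 4.82 TPM at 0 dpa (log2 change 5.69 ± 0.24, limma adjusted p = 3.48e-09), and the alpha tubulin tuba8l3 averaged 316 ± 14.2 TPM at 3 dpa and 13.9 ± 2.74 TPM at 0 dpa; near-identical tubulins can exchange reads in such estimates. Cilia genes rose for 27 of 44 (61.4%), with kif7, a ciliary kinesin of Hedgehog signalling, at 25.7 ± 2.54 TPM at 3 dpa and 4.92 ± 4.05 TPM at 0 dpa and the transition zone gene mks1 at 6.75 ± 1.16 TPM at 3 dpa and 0.651 ± 0.273 TPM at 0 dpa. Chromatin regulators rose for 58 of 130 (44.6%), against 35.6% of all genes, and fell for 11, or 22 after scaling. smarcad1b, a remodeller, was the leading riser (31.3, 24.9 and 22.1 TPM at 3 dpa, against 1.82, 1.22 and 1.21 TPM at 0 dpa, log2 change 3.48 ± 0.23, limma adjusted p = 1.33e-07), and hdac1, a deacetylase, averaged 412 ± 21.5 TPM at 3 dpa and 252 ± 19.1 TPM at 0 dpa. Splicing factors rose for 40 of 99 (40.4%, close to the 35.6% of all genes). After scaling 18 of the 99 rose and 17 fell, against 26.5% and 26.9% of all genes. Nuclear pore and transport genes rose for 15 of 44 (34.1%) and fell for 2 (4.55%), or 7 and 8 after scaling. kpna2, an importin of dividing cells, averaged 203 ± 31.6 TPM at 3 dpa and 65.2 ± 17.8 TPM at 0 dpa, and nup98, a nucleoporin, fell (159 ± 17.2 TPM at 3 dpa and 298 ± 38.1 TPM at 0 dpa). Actin regulators rose for 23 of 69 (33.3%) and fell for 17 (24.6%), close to the 35.6% and 19.9% of all genes. actb2, the most abundant actin of the list, averaged 9451 ± 966 TPM at 3 dpa and 12578 ± 252 TPM at 0 dpa (log2 change -0.42 ± 0.10, limma adjusted p = 0.00252).

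Transporter and channel genes changed in both directions. Solute carriers rose for 56 of 201 (27.9%) and fell for 47 (23.4%), against 35.6% and 19.9% of all genes. After scaling the counts were 44 and 68, against 26.5% and 26.9% of all genes. slc1a4, a neutral amino acid transporter, had 38.4, 39.1 and 34.1 TPM at 3 dpa, against 0.81, 0.608 and 0.201 TPM at 0 dpa (log2 change 4.65 ± 0.19, limma adjusted p = 2.72e-09), and slc2a10, a facilitative sugar transporter, averaged 22.7 ± 5.14 TPM at 3 dpa and 1.68 ± 0.447 TPM at 0 dpa. slc25a5, the mitochondrial ADP/ATP exchanger, was lower (2269.6 ± 284 TPM at 3 dpa and 3072 ± 37.9 TPM at 0 dpa). Ion channel genes rose for 16 of 47 and fell for 16 (34%, against 19.9% of all genes). kcnma1a, a calcium-activated potassium channel, had 10.4, 13.2 and 6.24 TPM at 3 dpa, against 0.0675, 0.135 and 0.134 TPM at 0 dpa. kcnj2a, an inward rectifier, averaged 55.6 ± 7.47 TPM at 3 dpa and 6.85 ± 3.3 TPM at 0 dpa. ano1a, a chloride channel, was lower (71 ± 23.9 TPM at 3 dpa and 214 ± 73.2 TPM at 0 dpa). Ion pump, aquaporin and carbonic anhydrase genes rose for 10 of 27 (37%) and fell for 3 (11.1%), or 10 and 5 after scaling. aqp3a, the epidermal water channel, fell (683 ± 119 TPM at 3 dpa and 1539.9 ± 130.5 TPM at 0 dpa).

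Markers of cell types were counted too, and in bulk tissue they do not tell cell number apart from RNA per cell. Fibroblast and mesenchyme markers rose for 14 of 16 and osteoblast markers for 15 of 19, with none fallen. These lists include genes named elsewhere in the text, such as aldh1a2, pdgfra and sp7. Blood endothelium markers rose for 21 of 26, with sums of 719, 787 and 807 TPM at 3 dpa, against 371, 338 and 323 TPM at 0 dpa. plvapb, of fenestrated vessels, averaged 148 ± 23.9 TPM at 3 dpa and 46.4 ± 6.8 TPM at 0 dpa, and etv2, a vessel-forming factor, averaged 16.8 ± 3.64 TPM at 3 dpa and 3.17 ± 0.415 TPM at 0 dpa. Erythrocyte markers rose for 8 of 13, with sums of 178, 245 and 406 TPM at 3 dpa, against 82, 103 and 81.8 TPM at 0 dpa. Pigment cell markers fell: 11 of 14 for melanophores, 6 of 14 for xanthophores (10 without 0 dpa library 3, and 12 after scaling) and 4 of 9 for iridophores, with none risen. tyrp1b, of melanin synthesis, averaged 34 ± 5.45 TPM at 3 dpa and 97.5 ± 24.1 TPM at 0 dpa. In lymphatic endothelium the markers parted, lyve1a falling (0.826, 1.47 and 5.44 TPM at 3 dpa, against 48.6, 46.4 and 49.7 TPM at 0 dpa) and flt4, the receptor Vegfr3, rising (29.9 ± 0.349 TPM at 3 dpa and 8.54 ± 2.51 TPM at 0 dpa). Skeletal muscle was near absent from both tips: 7 of 50 list members in the table were tested. Of these 5 rose (3 without 3 dpa library 1 or 0 dpa library 2) and 1 fell. The sums over the whole list were lower, at 60.4, 53.1 and 52.9 TPM at 3 dpa, against 96.8, 83.8 and 77.7 TPM at 0 dpa.

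At the extremes, 41 of the 11005 genes were under 1 TPM in all 0 dpa libraries and at least 5 TPM in all 3 dpa libraries, and 9 genes showed the reverse. Each of them met the inclusion rule only through the time of higher level. Their direction was thus fixed by the selection, and the counts are a description. The test of slc1a4 given above carries the same limit. has2 and slc1a4, given above, were among those that appeared. adra2da, an alpha-2 adrenergic receptor, had 0.571, 0.902 and 0.686 TPM at 3 dpa, against 9.52, 13.8 and 10.5 TPM at 0 dpa, and c4b, a complement component, had 0.952, 0.645 and 0.873 TPM at 3 dpa, against 9.12, 11.3 and 8.9 TPM at 0 dpa. At the edge of the inclusion rule, 215 genes just reached it with 2 libraries at 1 TPM or more and 248 just missed it with 1.

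The 3 dpa tip was also set against later regrowth. Relative to the mean of the 7, 10 and 14 dpa groups, 1864 genes (16.9%) were higher at 3 dpa and 2159 (19.6%) were lower. This comparison and the one against 0 dpa share the 3 dpa libraries, so values are given side by side only. Of the later libraries, 7 dpa library 2 and 10 dpa libraries 2 and 3 were classed with 0 dpa library 1 as high in fosb. No 3 dpa library was. Without these 4 libraries, 2513 genes were higher at 3 dpa than in later regrowth and 2501 were lower. The part of that state in the differences from later regrowth was not tested. Mitosis genes were higher than in later regrowth for 28 of 66, ER entry genes for 26 of 40, and DNA replication genes for 3 of 51. Interferon response genes were lower for 33 of 40 and antigen presentation genes for 26 of 33. Of the genes that most set 3 dpa apart on the high side, pcp4a, a calmodulin-binding peptide gene, averaged 216 TPM at 3 dpa and 19.1, 14.8 and 6.09 TPM at 7, 10 and 14 dpa (log2 difference 4.05 ± 0.12, limma adjusted p = 2.11e-09). hrh3, a histamine receptor, averaged 46.9 TPM at 3 dpa and 3.78, 2.77 and 2.34 TPM at those times (log2 difference 3.62 ± 0.29, limma adjusted p = 2.15e-06). On the low side, ptgdsb.1 averaged 104 TPM at 3 dpa and 1002, 1622 and 1749.7 TPM later (log2 difference -3.98 ± 0.32, limma adjusted p = 1.91e-06), and nos2a 43.9 TPM at 3 dpa and 524, 845 and 410.1 TPM later (log2 difference -3.35 ± 0.72, limma adjusted p = 0.00311).

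Genes of the contrasts above took different courses. psmb7 averaged 11 TPM at 0 dpa, 144 at 3 dpa, and 74.4, 48.9 and 26.3 TPM at 7, 10 and 14 dpa, so its mean was highest at 3 dpa among the 5 times (log2 difference of 3 dpa from later regrowth 1.63 ± 0.15, limma adjusted p = 4.71e-06). psmb8a averaged 334 TPM at 0 dpa, 107 at 3 dpa, and 175, 256 and 330.2 TPM later. hmgcra averaged 229.6 TPM at 0 dpa, 10.4 at 3 dpa, and 70.2, 66.8 and 134 TPM later (log2 difference -2.99 ± 0.45, limma adjusted p = 0.000251). odc1 averaged 6283 TPM at 0 dpa, 2045 at 3 dpa, and 3666, 4802 and 3466 TPM later (log2 difference -0.94 ± 0.13, limma adjusted p = 0.000109). nr1d1 averaged 308 TPM at 0 dpa, 63.4 at 3 dpa, and 192, 246 and 234 TPM later (log2 difference -1.75 ± 0.32, limma adjusted p = 0.000922). Its level varied within a later time: 7 dpa library 2, which was high in fosb, had 281 TPM, against 98.8 and 196 TPM in 7 dpa libraries 1 and 3.

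**Figure D5:**
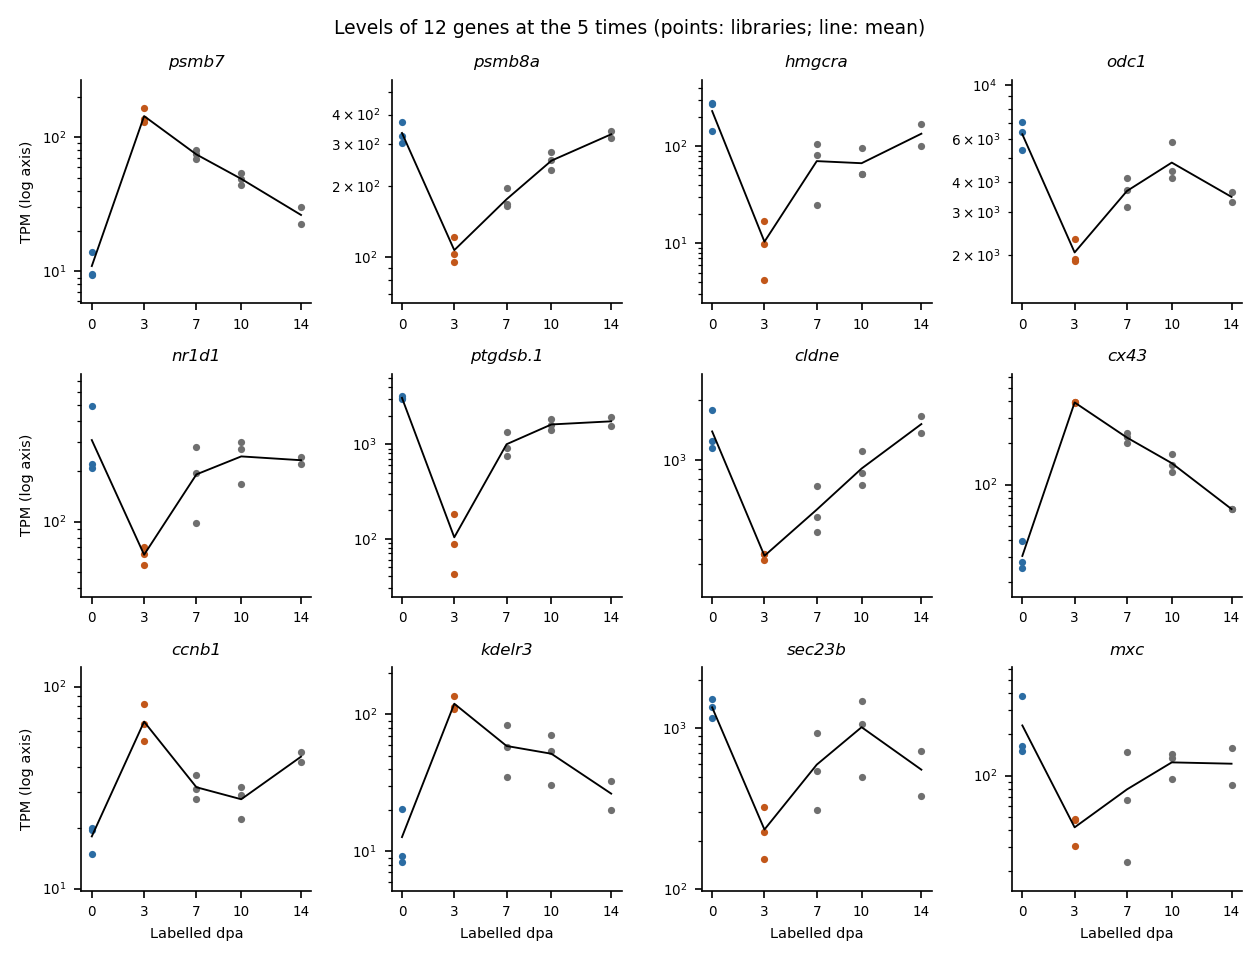
TPM of 12 named genes in every library of 0, 3, 7, 10 and 14 dpa (horizontal axis, labelled dpa; vertical log axis, TPM), with lines through the means of each time. psmb7 is highest at 3 dpa, whereas ptgdsb.1 and hmgcra are lowest there among the times drawn. The 3 dpa libraries are the study's 3.5-day tissue.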

How the data were processed

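Bulk RNA from fin ray tips was sequenced in 14 libraries, of which 3 at 3 dpa and 3 at 0 dpa form the comparison. The deposited values are TPM per gene, a length-corrected share of each library's reads, with one column per library; per the submitters' processing notes the tools were Trim Galore 0.6.7, cutadapt 3.5 and Salmon 1.4.0 and the build was danRer11. TPM sums to the same total in every library over the 14836 genes, so depth is unknown and no interval from counting can be given. Salmon divides reads of near-identical genes by estimation, so members of such families (tubulins, Mx genes, class I and II genes, chemokines, prostaglandin D synthases) are uncertain one by one.

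Genes that reached 1 TPM in 2 or more of the 6 libraries, 11005 in number, were tested with limma 3.58.1 (R 4.3.3) on log2(TPM + 1), with 1 mean per time over all 14 libraries, variances following a trend with level, and Benjamini-Hochberg adjustment at 0.05. The 3 dpa group was set against 0 dpa and, in the same fit, against the mean of 7, 10 and 14 dpa. The scripts were tested on simulated data. Python 3.11 tools computed the remaining summaries. Replicates were separate pools of 10 fish.

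Gene lists, 104 in number, and the rule for named genes were chosen with earlier results of these data known. Named genes passed the test, did not overlap between the times, averaged 5 TPM or more at the time of higher level and had no clone or locus name. They were the 15 largest rises and falls among such genes, the 10 largest in TPM and up to 5 members of each list. The most abundant 2 of each list were added whether or not they passed. So were 6 genes in each direction that were under 1 TPM in one group, and 8 in each direction against later regrowth. Except for fosb, genes outside this rule are said where they occur to have been picked after their values were seen. fosb overlapped between the times and was given to describe the libraries.

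Libraries of 3 and 0 dpa with the same replicate number deviated together from their group means (correlation 0.305, 0.29 and 0.177 for the 3 numbers), a pairing that comes from the labels' numbers alone. An unmatched pair of these times, 0 dpa library 3 and 3 dpa library 2, reached 0.229, and same-number pairs that include other times ranged down to -0.779 (0 and 10 dpa, library 1). Unmatched pairs that include other times went higher than any matched pair of 0 and 3 dpa. The pair of 7 dpa library 2 and 10 dpa library 3 reached 0.79, and that of 0 dpa library 1 and 7 dpa library 2 reached 0.785. Alternatives covered pseudocount, filter, scaling, variance model, library weights, a replicate block, the libraries in the fit and each library left out. A planned look at promoter motifs was not run, because no sequences were used here.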

Additional observations from a re-analysis of the deposited data

How the results depend on the processing

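At 3 dpa against 0 dpa the genes past the threshold numbered 6105, and between 4742 (mean of at least 5 TPM) and 7899 (library weights) in the alternatives other than leaving out 1 library. Leaving out 1 library gave 5104 to 6166 genes, with 3135 to 4195 higher and 1931 to 2044 lower. Against later regrowth, leaving out 1 library gave 3087 to 4219 genes, with 1369 to 1970 higher and 1699 to 2249 lower. A planned fit left out the 4 libraries with high fosb, which were 0 dpa library 1, 7 dpa library 2 and 10 dpa libraries 2 and 3. In it 7067 genes passed against 0 dpa and 5014 against later regrowth. Library weights moved the number higher at 3 dpa than in later regrowth to 3115, against 1864 without weights; the cause was not tested. With the replicate number as a block, 5863 genes passed against 0 dpa and 3695 against later regrowth, and 6402 passed against 0 dpa when only the 6 libraries were fitted with the block, an alternative chosen after seeing the data. The block changed no total by more than 1.5 times. Of the genes chosen by the naming rule and named in the text, it ended the call of pcna and cebpb (limma adjusted p = 0.0549 and 0.0537). In the 6 libraries with the block, hspa5, itga6b, itgb4 and mcm7 gained one (limma adjusted p = 0.00217, 0.00569, 0.00671 and 0.00493). No gene chosen by the naming rule changed direction under an alternative where it passed the test in the main fit or in that alternative. Sign changes of genes that passed in neither were not recorded. Genes picked after their values were seen were not part of that check. Counts in gene groups moved most often with median-of-ratios scaling, where 42 of them changed by more than 1.5 times, and least often with the block, where 7 did. Depth is unknown, so low genes carry an error that cannot be stated beyond the spread of 3 libraries; changes of genes near 1 TPM are understated by the added 1.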

Other observations

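Other gene groups of the 3 dpa and 0 dpa tips were described in the same way, against 35.6% of all genes risen and 19.9% fallen. Matricellular and elastic fibre genes rose for 17 of 24 members and fell for 4. mfap2, a microfibril protein, averaged 111 ± 4.01 TPM at 3 dpa and 6.97 ± 3.24 TPM at 0 dpa. efemp2a, an elastic fibre assembly protein, averaged 75.3 ± 24.9 TPM at 3 dpa and 1.62 ± 0.41 TPM at 0 dpa. Genes of lipid binding and lipoproteins rose for 6 of 13 and fell for 4, with the fatty acid binding protein fabp11a at 35.1 ± 0.256 TPM at 3 dpa and 4.38 ± 0.558 TPM at 0 dpa and the hormone-sensitive lipase lipea at 5.84 ± 1.55 TPM at 3 dpa and 12.3 ± 2.21 TPM at 0 dpa. Of 28 histone and high mobility group genes 17 rose and 4 fell, among them hmgb3a (36.2 ± 3.45 TPM at 3 dpa and 12.3 ± 2.63 TPM at 0 dpa) and the centromeric histone cenpa (13 ± 1.08 TPM at 3 dpa and 4.2 ± 1.51 TPM at 0 dpa). Nuclear receptors fell for 14 of 42 and rose for 7. nr2f1a averaged 20.4 ± 3.04 TPM at 3 dpa and 2.22 ± 0.413 TPM at 0 dpa and nr1i2, the xenobiotic receptor, 9.74 ± 1.75 TPM at 3 dpa and 38.4 ± 12.4 TPM at 0 dpa. Klf and Sp factors were divided, with 7 risen and 9 fallen of 26: sp7, a factor of bone-forming cells, averaged 59 ± 22.2 TPM at 3 dpa and 3.06 ± 2.21 TPM at 0 dpa. klf9, a glucocorticoid-responsive factor, averaged 30.3 ± 23.6 TPM at 3 dpa and 182 ± 16.5 TPM at 0 dpa. Calcineurin, Nfat and calcium signalling genes rose for 9 of 24 (37.5%) and fell for 7 (29.2%), or 6 and 8 after scaling. The count fallen was 4 without 3 dpa library 3 or 0 dpa library 1 or 2. Among the risers nfatc1, a calcineurin-activated factor, averaged 82.8 ± 30.3 TPM at 3 dpa and 18.4 ± 11.3 TPM at 0 dpa and rcan2, a calcineurin regulator, averaged 68.7 ± 20.8 TPM at 3 dpa and 12.8 ± 3.15 TPM at 0 dpa.

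Markers of scarcer cells gave short lists. Osteoclast markers rose for 4 of 8 and fell for 2: ctsk, the bone-resorbing cathepsin, averaged 969 ± 50 TPM at 3 dpa and 433 ± 63.3 TPM at 0 dpa. acp5b, a tartrate-resistant phosphatase, averaged 4.38 ± 1.24 TPM at 3 dpa and 14.3 ± 3.22 TPM at 0 dpa. Thrombocyte and mast cell markers rose for 4 of 8, with f13a1b, a clotting factor chain, at 278 ± 36.8 TPM at 3 dpa and 99.1 ± 11.6 TPM at 0 dpa. Pericyte and smooth muscle markers rose for 4 of 12 and fell for 4. pdgfrb averaged 98.4 ± 24.5 TPM at 3 dpa and 33.7 ± 6.32 TPM at 0 dpa and myh11a, smooth muscle myosin, 25.9 ± 4.63 TPM at 3 dpa and 96.1 ± 1.92 TPM at 0 dpa. Mucous cell markers fell for 3 of 4, with agr2 at 7.03 ± 3.24 TPM at 3 dpa and 33.7 ± 5.65 TPM at 0 dpa. Merkel cell and neuromast markers fell for 5 of 10, though the members named by the rule, such as krt4 (5411 ± 939 TPM at 3 dpa and 11031 ± 1482 TPM at 0 dpa), are also epidermal genes.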
